A study of Mus musculus with 45 samples.

Results

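Cdkn1a, Zmat3 and Ccng1, 3 genes known as direct transcriptional targets of the tumour suppressor p53, were followed through bulk RNA sequencing of differentiating mouse embryonic stem cells (mESCs). They were taken by symbol from a deposited table of 11220 genes and 45 libraries, in which each has 1 row. The 45 libraries are cultures in 15 groups of 3, from 3 independent differentiations according to the series' design text, and the mESC line is not given in the sources used here. D0 was the undifferentiated mESCs on day 0. D3 was the day 3 stage labelled NMPs (neuromesodermal progenitors), reached with bFGF and the WNT activator CHIR, and all later groups descend from that step. The R groups then had 100 nM retinoic acid (RA) alone from day 3 to day 5 and were sampled on day 4 (R4), 6 h later (R6hr) and on days 5, 7 and 9 (R5, R7, R9). The B groups had RA alone for the first 24 h and RA with 10 ng/ml BMP4 for the next 24 h, and were sampled 6 h after day 4 (B6hr) and on days 5, 7 and 9 (B5, B7, B9). The M groups had RA and BMP4 together from day 3 for 48 h and were sampled on days 4, 5, 7 and 9 (M4, M5, M7, M9). M against B therefore compares cultures that differ in the start of BMP4 and in its duration, 48 h against 24 h. For the R groups the protocol text also gives day 3 to day 4 as the interval beside the 48 h, and for the combined treatment it uses another letter than the sample titles, which are followed here. Every group sampled after day 3 had been given RA, so none served as a control without it. The titles of the day 7 and day 9 groups place treatment between day 3 and day 5, before those samples were taken. The labels describe no agent that damages DNA and no change to p53.

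p53 is a transcription factor that is held low by the ubiquitin ligase Mdm2 and its relative Mdm4, and that rises when DNA is damaged, nucleotides run short or ribosome assembly fails. It binds a paired decamer in DNA and turns on genes for cell cycle arrest, DNA repair, metabolic adjustment and cell death. Cdkn1a encodes p21, which inhibits cyclin-dependent kinases (CDKs) and can halt the cell cycle, and which is also transcribed in differentiating cells through factors other than p53. Ccng1 encodes cyclin G1, which recruits the phosphatase PP2A to Mdm2 and so feeds back on p53. Zmat3 encodes a zinc finger protein that binds RNA and affects the stability and splicing of its target transcripts.

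All 3 genes are annotated as protein-coding in GENCODE M21 on mm10. Cdkn1a (ENSMUSG00000023067) lies on chromosome 17 from 29090976 to 29100727 on the plus strand, and Ccng1 (ENSMUSG00000020326) on chromosome 11 from 40748552 to 40755311 on the minus strand. Zmat3 (ENSMUSG00000027663) lies on chromosome 3 from 32334792 to 32366014 on the minus strand. Cdkn1a overlaps an annotated transcript of the opposite strand, AC167363.2, and the strand setting of the authors' counting is not given in the sources used here, so reads of that transcript could be included in the level of Cdkn1a. Promoter windows of 300 bases, from 250 before to 50 after the RefSeq start on GRCm38.p6, were found for Cdkn1a (2 starts) and Ccng1. They are shown because each holds a match to the p53 consensus element, searched as 2 abutting decamers of 20 bases in all with at most 1 position off, a tolerance chosen after the windows had been seen. The consensus reads the same on either strand, so the search covers both. Capitals mark the match, and each window is printed 5′ to 3′ on the strand of its gene.
Cdkn1a, first start, chr17:29090729-29091028, plus strand: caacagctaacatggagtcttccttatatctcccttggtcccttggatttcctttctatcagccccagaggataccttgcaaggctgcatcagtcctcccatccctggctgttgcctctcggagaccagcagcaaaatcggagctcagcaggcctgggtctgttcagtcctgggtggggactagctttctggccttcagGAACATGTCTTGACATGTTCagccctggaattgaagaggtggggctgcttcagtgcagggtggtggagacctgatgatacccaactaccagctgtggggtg
Ccng1, chr11:40755237-40755536, minus strand: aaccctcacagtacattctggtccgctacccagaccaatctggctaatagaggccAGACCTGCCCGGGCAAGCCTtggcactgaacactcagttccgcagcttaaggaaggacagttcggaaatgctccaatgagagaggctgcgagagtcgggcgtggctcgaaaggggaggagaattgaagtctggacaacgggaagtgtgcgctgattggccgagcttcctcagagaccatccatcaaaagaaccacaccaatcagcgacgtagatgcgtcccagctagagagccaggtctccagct
In Cdkn1a the match runs from position -51 to -32 before the start, and in Ccng1 from -195 to -176, each with 1 position off the consensus. The window of the second Cdkn1a start, chr17:29093519-29093818, holds no decamer of the consensus. Among 32851 RefSeq promoter windows of the same length, 29 (0.0883%) hold such a 20-base match and 2745 (8.36%) hold a single exact decamer. Of 30 other p53 target genes with a window, 2 hold the 20-base match (Gtse1 and Rps27l) and 8 hold a decamer. A match describes the letters in a window, and binding was not measured.

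The deposited values are normalized levels with no stated unit, summing to between 12245725 and 15868724 per library. Read depth is unknown, so no counting error can be attached to a level, and levels of different genes are not compared because no correction for gene length is stated. Changes below are log2 changes of level + 1 from limma-trend, fitted to all 11220 genes and all 45 libraries, and a gene was called at a Benjamini-Hochberg adjusted p under 0.05. The SE of a log2 change was the same in every comparison of 2 groups: 0.12 for Cdkn1a, 0.09 for Zmat3 and 0.10 for Ccng1. The authors kept a gene in the table when at least 1 of their 12 contrasts of RA-treated cultures called it. The share of its genes called in a comparison is given as the background, and it is higher than a share of the whole transcriptome would be. It is no background for groups that do not overlap. The share of listed genes without overlap is not given here, so an absence of overlap only describes the libraries. Comparisons of M and B with R on the same day share the R libraries. The labels do not say which cultures share a differentiation, and p-values measure the spread between these samples, part of which may be technical. In such bulk cultures, fewer cells of a type that expresses a gene and less RNA per cell cannot be told apart.

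Cdkn1a varied most across the course. Its group means spanned 6.82-fold, from 1252 ± 49.9 (SD, n = 3) in D0 to 8536 ± 1210 (SD, n = 3) in D3. The order from high to low was D3, R7, M9, R5, B7, R9, B9, B6hr, R4, R6hr, M7, B5, M4, M5 and D0. Of the 14 neighbours in that order, 4 did not overlap: D3 with R7, R7 with M9, B5 with M4 and M4 with M5. Such counts are not given for other listed genes, so they do not set a member apart. Zmat3 spanned 2.10-fold, from 3325 ± 197 (SD, n = 3) in M5 to 6973 ± 381 (SD, n = 3) in R7. Its order was R7, B6hr, B7, D3, R6hr, R5, R4, B5, B9, M9, R9, D0, M4, M7 and M5, and only M7 and M5, at the low end, were neighbours without overlap. Ccng1 spanned 2.17-fold, from 8673 ± 520 (SD, n = 3) in D0 to 18776 ± 2078 (SD, n = 3) in M9. Its order was M9, R6hr, R4, R5, B6hr, R7, D3, B5, M4, M7, B7, B9, R9, M5 and D0, and only R9 and M5 were neighbours without overlap. The SD between group means on the log2 scale was 0.67 for Cdkn1a, 0.30 for Zmat3 and 0.35 for Ccng1, against 0.15, 0.11 and 0.12 between libraries of a group. M5 was among the lowest groups for each gene, whereas the highest group was a different one for each.

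**Figure D1:**
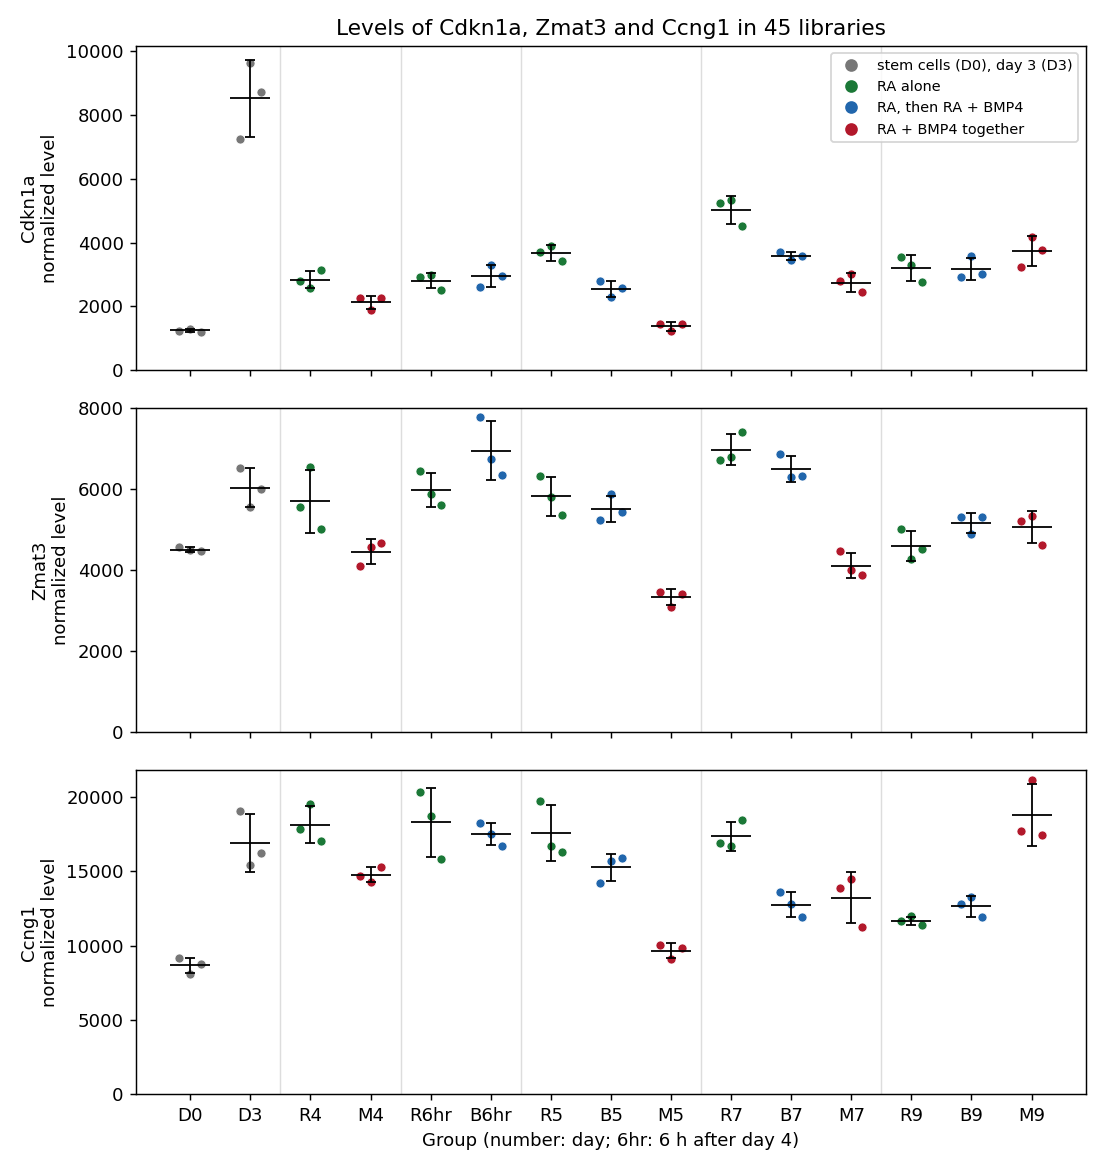
Normalized level (vertical axis, linear, from 0) of Cdkn1a, Zmat3 and Ccng1 in each of the 45 libraries by group. Points are libraries, horizontal lines are means and bars are the SD of 3 libraries. Cdkn1a stands highest in D3 (mean 8536) and lowest in D0 (1252), and M5 is low for all 3 genes.

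Between the undifferentiated cells and day 3 all 3 genes rose, Cdkn1a far more than the others. Cdkn1a stood at 1240, 1307 and 1210 in the D0 libraries and at 7245, 9645 and 8719 in the D3 libraries. Every D3 library stood far above every D0 library, and the change was 6.77-fold (log2 change 2.76, adjusted p = 1.49e-18). Ccng1 went from 9146, 8117 and 8756 to 19074, 15421 and 16222, a 1.94-fold rise (log2 change 0.96, adjusted p = 5.75e-10). Zmat3 went from 4568, 4488 and 4459 to 6530, 5568 and 6002, a 1.34-fold rise (log2 change 0.42, adjusted p = 0.000202). The groups did not overlap for any of the 3 genes. In this comparison 54.9% of the listed genes were called, so a call by itself does not set the members apart. Centring each library on its median shifted the median change of all genes by -0.22, and Zmat3 was then not called (log2 change 0.20, adjusted p = 0.228), whereas Cdkn1a (2.54) and Ccng1 (0.74) remained called.

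The libraries within D0 and D3 differed widely in cell type markers. The caudal progenitor gene Nkx1-2 stood at 14969, 439 and 449 in D3 replicates 1, 2 and 3, and Cdx2, a caudal homeobox gene, at 11029, 647 and 839. The neural and progenitor factor Sox2 was present in all 3, at 1716 to 3261. The summed level of 9 pluripotency markers ran from 17082 to 100136 in D0 and from 3043 to 7517 in D3, and 8 of the 9 fell. None of the markers in any list used here was at 0, but no deposited level was, so this does not show that a marker was expressed. The summed level of 9 neuronal markers was 4816 in D3 replicate 1 and 22071 and 22374 in the others, and that of 9 mesenchymal markers 2495, against 11410 and 14066. In D0 the mesenchymal markers summed to 19396, 20675 and 5291. Proliferation genes summed to 89037 in D3 replicate 1 and to 60081 and 57011 in the others. Among the members, D3 replicate 1 was lowest for Cdkn1a (7245 against 9645 and 8719) and highest for Zmat3 (6530 against 5568 and 6002). It was also highest for Ccng1 (19074 against 15421 and 16222). These gaps were small beside those of Nkx1-2 and Cdx2. The part of these markers in the change from D0 to D3 was not tested. Without D3 replicate 1 the log2 change of Cdkn1a was 2.87 (0.36 for Zmat3 and 0.87 for Ccng1). Without D0 replicate 3 the changes were 2.73, 0.41 and 0.97, and all 3 genes were called in both cases.

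After the first 24 h of RA Cdkn1a was much lower than on day 3, and the other members were not called. Cdkn1a stood at 2790, 2595 and 3136 in R4, 2.99-fold lower than in D3 (log2 change -1.58, adjusted p = 9.22e-12) and below each D3 library, but still above each D0 library. Background in this comparison was 24.3%. Zmat3, at 5546, 6542 and 5014 in R4, was not called (log2 change -0.09, 95% interval -0.27 to 0.10). Ccng1, at 17819, 19562 and 17073, was not called either (log2 change 0.11, 95% interval -0.09 to 0.30). Without D3 replicate 1 the change of Cdkn1a was -1.695. Cell type markers moved over the same day. Neural progenitor markers summed to 9163 to 9431 in D3 and 19342 to 25842 in R4 (7 of 8 risen), and neuronal markers to 4816 to 22374 and 2045 to 6909 (5 of 9 fallen). Their part in the result was not tested.

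In the groups given RA alone, Cdkn1a rose to day 7 and all 3 genes fell from day 7 to day 9. By the titles RA was given between day 3 and day 5, so R7 and R9 were sampled after it. Cdkn1a reached 3716, 3890 and 3412 in R5 (log2 change 0.37 over R4, adjusted p = 0.0348, background 12.7%). It reached 5236, 5338 and 4529 in R7 (0.45 over R5, adjusted p = 0.0115, background 11.2%). These steps are small against the spread. The rise to R5 was called without R4 replicate 3, but not without R4 replicate 1 (adjusted p = 0.104) or 2 (0.138) nor without R5 replicate 1 (0.067), 2 (0.126) or 3 (0.0603). The rise to R7 was not called without R5 replicate 3 (0.0717), R7 replicate 1 (0.0510) or R7 replicate 2 (0.0513). Zmat3 stood at 6324, 5791 and 5364 in R5 and at 6718, 6790 and 7411 in R7. Its groups on days 5 and 7 did not overlap, but the change missed the threshold (log2 change 0.26, adjusted p = 0.0571), and it was called without R5 replicate 1 (0.0389). Ccng1 stood at 19763, 16680 and 16280 in R5 and at 16903, 16699 and 18451 in R7, and was called in neither step (log2 changes -0.05 and -0.01).

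By day 9 Cdkn1a had come down to 3553, 3306 and 2772 in R9 (log2 change -0.65 from R7, adjusted p = 0.000298). Zmat3 stood at 5009, 4283 and 4524 (log2 change -0.60, adjusted p = 4.91e-05). Ccng1 stood at 11652, 11965 and 11415 (log2 change -0.57, adjusted p = 0.000154). For each gene every R9 library was below every R7 library, and 20.3% of the listed genes were called. With quantile normalization the fall of Ccng1 shrank to -0.23 (adjusted p = 0.0495) and those of Cdkn1a and Zmat3 to -0.46 and -0.36, and all stayed called. Of 17 proliferation genes 10 fell and none rose over the same interval, and their summed level went from between 89729 and 130419 in R7 to between 65300 and 74123 in R9. The pluripotency markers were higher in R9, 6071 to 11504 against 983 to 2634 in R7, with 7 of 9 risen. Their part in the changes of the members was not tested.

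With BMP4 given together with RA all 3 genes were lower than with RA alone, by a small margin on day 4 and a larger one on day 5. On day 4 Cdkn1a stood at 2252, 1897 and 2256 in M4 (log2 change -0.41 against R4, adjusted p = 0.0164). Zmat3 stood at 4097, 4581 and 4679 (-0.35, adjusted p = 0.00713), and Ccng1 at 14696, 14291 and 15305 (-0.30, adjusted p = 0.0357). No M4 library reached the lowest R4 library of its gene, and 14.1% of the listed genes were called. The calls rest on single libraries. Cdkn1a lost its call without R4 replicate 3 (adjusted p = 0.105) or M4 replicate 2 (0.133), and Zmat3 without R4 replicate 2 (0.0863). Ccng1 lost it without R4 replicate 1 (0.0688) or 2 (0.154) and without M4 replicate 1 (0.0768) or 2 (0.140), and in the authors' deposited table its rate was 0.119. Neural progenitor markers were lower in M4 (summed level 4279 to 9073 against 19342 to 25842 in R4, 7 of 8 fallen) and mesenchymal markers higher (16376 to 30409 against 4198 to 9587, 5 of 9 risen). Their part in the result was not tested.

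On day 5 the combined treatment gave the lowest mean of all RA-treated groups for each of the 3 genes. Cdkn1a stood at 1464, 1218 and 1462, against 3716, 3890 and 3412 in R5, 2.66-fold lower (log2 change -1.41, adjusted p = 7.79e-11). Ccng1 stood at 10051, 9095 and 9820, against 19763, 16680 and 16280, 1.81-fold lower (log2 change -0.86, adjusted p = 1.83e-08). Zmat3 stood at 3461, 3099 and 3415, against 6324, 5791 and 5364, 1.75-fold lower (log2 change -0.81, adjusted p = 1.61e-08). No M5 library overlapped an R5 library for any of the genes. The mean of Zmat3 was lower in M5 than in any other group, D0 included, and for Ccng1 and Cdkn1a only D0 was lower. The background was 44.3%, so nearly as many listed genes were called as not. Centring libraries on their medians moved the median of all genes by 0.135 and left changes of -1.28, -0.67 and -0.725 for Cdkn1a, Zmat3 and Ccng1, all called.

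Set against the sequential treatment on the same day, M5 was again lower. Cdkn1a stood at 2790, 2286 and 2579 in B5, 1.85-fold above M5 (log2 change of M5 over B5 -0.89, adjusted p = 2.74e-06). Zmat3 stood at 5224, 5869 and 5426 in B5 (M5 over B5 -0.73, adjusted p = 7.47e-07), and Ccng1 at 14248, 15673 and 15871 (-0.66, adjusted p = 9.88e-06). Each M5 library was below each B5 library for all 3 genes, and here the background was 17.8%. Cultures also differed in cell type markers. The summed level of 8 neural progenitor markers was 34883 to 59471 in R5, 12275 to 24326 in B5 and 3835 to 7494 in M5, with 8 of 8 lower in M5 than in R5 by the test. That of 9 mesenchymal and lateral mesodermal markers was 4021 to 14075, 9449 to 25149 and 25498 to 33923, with 6 of 9 risen in M5 over R5. In M5 over R5 44.3% of all listed genes were called in either direction. The part of this change in cell types in the levels of the members was not tested.

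BMP4 given after 24 h of RA went with lower Cdkn1a on days 5 and 7 and lower Ccng1 on day 7. After 6 h no member was called. Cdkn1a stood at 2938, 2978 and 2528 in R6hr and at 2617, 3317 and 2948 in B6hr (log2 change 0.07, 95% interval -0.17 to 0.31). Ccng1 stood at 20369, 18714 and 15817 in R6hr and at 18267, 17504 and 16738 in B6hr (-0.06, 95% interval -0.26 to 0.14). Zmat3 stood at 6448, 5876 and 5608 in R6hr and at 7767, 6746 and 6337 in B6hr (0.215, 95% interval 0.03 to 0.40, adjusted p = 0.207). Only 0.0178% of the listed genes, 2 in number, were called. By the correlation check given with the processing, equal replicate numbers were taken as pairs here, though the labels do not say so. With a replicate block in a fit of these 6 libraries Zmat3 was called (adjusted p = 0.0183), as were 25.9% of all listed genes. With the block over all libraries Zmat3 was not called (0.202). In pairs 1, 2 and 3 Zmat3 was higher in B6hr each time.

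After 24 h of BMP4 Cdkn1a was lower in B5 than in R5 without overlap (log2 change -0.53, adjusted p = 0.00628), where the background was 5.99%. Without B5 replicate 2, the lowest library, the call was lost (adjusted p = 0.0701). Ccng1 did not overlap between B5 and R5 either, but was not called (-0.20, adjusted p = 0.232), and Zmat3 was not called (-0.08, 95% interval -0.26 to 0.10). On day 7 Cdkn1a stood at 3704, 3474 and 3586 in B7 (-0.485 against R7, adjusted p = 0.00446) and Ccng1 at 13599, 12782 and 11901 (-0.44, adjusted p = 0.00173). For both genes all B7 libraries were below all R7 libraries. With quantile normalization the change of Ccng1 was -0.27 (adjusted p = 0.0161). Zmat3, at 6856, 6298 and 6332, overlapped R7 (-0.10, adjusted p = 0.438). Background on day 7 was 23.7%. The summed level of 9 neuronal markers was higher in B7, 39766 to 54490 against 5116 to 19971 in R7. Only 2 of the 9 markers rose by the test, at that background of 23.7%. Their part in the result was not tested.

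By day 9 the sequentially treated cultures could not be distinguished from RA alone in these genes. Cdkn1a stood at 2930, 3587 and 3015 in B9 (log2 change against R9 -0.01, 95% interval -0.25 to 0.23). Zmat3 stood at 5300, 4889 and 5320 (0.17, 95% interval -0.01 to 0.35), and Ccng1 at 12786, 13268 and 11895 (0.11, 95% interval -0.08 to 0.31). The groups overlapped for each gene, and 11.8% of the listed genes were called. Within the B groups Cdkn1a rose from day 5 to day 7 (0.50, adjusted p = 0.00189), at a background of 31.2%. Zmat3 rose (0.24, adjusted p = 0.0424) and Ccng1 fell (-0.26, adjusted p = 0.0404) over those days, but both calls were lost without any of several single libraries. Those were B5 replicate 1 (0.127) or 3 (0.119) and B7 replicate 1 (0.158), 2 (0.0589) or 3 (0.0616) for Zmat3. For Ccng1 they were B5 replicate 2 (0.104) or 3 (0.145) and B7 replicate 2 (0.0784) or 3 (0.153). From day 7 to day 9 Zmat3 fell (-0.33, adjusted p = 0.0122, background 14.2%), though not without B7 replicate 1 (0.0674) or B9 replicate 2 (0.0658). Cdkn1a (-0.18) and Ccng1 (-0.01) were not called. The difference between the B effects on days 9 and 7 was called for none of the 3 genes (adjusted p = 0.477 for Cdkn1a, 0.777 for Zmat3 and 0.127 for Ccng1), and for 0.0980% of the listed genes.

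In the combined treatment the low levels of day 5 were partly made up by day 7. Cdkn1a rose to 2786, 3014 and 2445 in M7 (log2 change 0.99 over M5, adjusted p = 7.59e-07). Ccng1 rose to 13876, 14489 and 11258 (0.445, adjusted p = 0.0018) and Zmat3 to 4460, 3991 and 3873 (0.30, adjusted p = 0.0227). No M7 library overlapped an M5 library, with 12.5% of the listed genes called. For Zmat3 the call was lost without M5 replicate 2 (0.127) or M7 replicate 1 (0.115), and with centring on the library medians Zmat3 (adjusted p = 0.350) and Ccng1 (0.0879) were not called. Compared with R7, M7 was still lower for each gene without overlap. The log2 changes were -0.87 for Cdkn1a (adjusted p = 4.48e-07), -0.765 for Zmat3 (3.94e-08) and -0.40 for Ccng1 (0.0011), and the background was 43.5%. Against B7, Zmat3 was lower (-0.66, adjusted p = 8.04e-07) and so was Cdkn1a (-0.39, adjusted p = 0.0093, but 0.0637 without M7 replicate 3). Ccng1 was not called (0.04, 95% interval -0.15 to 0.24), at a background of 41.6%. Neural progenitor markers summed to 29190 to 34111 in R7 and 4880 to 10054 in M7 (7 of 8 fallen), and mesenchymal markers to 2302 to 15338 and 26698 to 46486 (7 of 9 risen). Their part in the result was not tested.

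On day 9 the order had turned for Ccng1, which was highest in the combined treatment. Ccng1 stood at 17698, 21171 and 17459 in M9, 1.60-fold above R9 (log2 change 0.68, adjusted p = 1.04e-06) and 1.48-fold above B9 (0.57, adjusted p = 2.42e-05), with no overlap in either comparison. With quantile normalization these changes were smaller, 0.345 and 0.20, and remained called. Cdkn1a stood at 3233, 4191 and 3783 in M9, overlapping R9 (0.22, 95% interval -0.02 to 0.46, adjusted p = 0.123) and B9 (0.23, 95% interval -0.01 to 0.47, adjusted p = 0.102). Without M9 replicate 1, its lowest library, Cdkn1a was called in both (adjusted p = 0.0432 and 0.0359). Against B9 it was also called without B9 replicate 2 (0.0443), and with centring on the medians in both (0.0367 and 0.0186). With quantile normalization its changes shrank to 0.052 and 0.050 and were not called. The authors' deposited test of M9 over B9 gave it 0.185 at a false discovery rate of 0.315. Zmat3 stood at 5217, 5343 and 4623, not called against R9 (0.14, 95% interval -0.05 to 0.32) or B9 (-0.03, 95% interval -0.22 to 0.15), though with quantile normalization it was lower in M9 than in B9 (-0.25, adjusted p = 0.00626). The backgrounds were 51.0% against R9 and 51.5% against B9. Of 17 proliferation genes 7 rose and 2 fell in M9 over R9 and 15 rose and 1 fell in M9 over B9, and their summed level was 77327 to 92061 in M9, 65300 to 74123 in R9 and 56185 to 63680 in B9. Neural progenitor markers summed to 6813 to 7780 in M9 and 18961 to 22103 in R9 (6 of 8 fallen). Their part in the levels of the members was not tested.

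From day 7 to day 9 of the combined treatment Ccng1 rose (log2 change 0.51, adjusted p = 0.0015) and Cdkn1a rose (0.44, adjusted p = 0.0283), while Zmat3 missed the threshold (0.30, adjusted p = 0.0522). The groups did not overlap for any of the 3. The background of called genes was 4.00%, or 449 genes. That count fell to between 193 and 280 without M7 replicate 1 or any 1 of the M9 libraries. By the same correlation check, equal replicate numbers of M9 and M7 were taken as pairs. With the replicate block over all libraries Zmat3 was called (0.0439), as it was without M9 replicate 3 (0.0448). In a fit of the 6 libraries with the block Cdkn1a was not called (0.0761). Without M7 replicate 1 (0.0732) or 3 (0.132) or without M9 replicate 2 (0.160) or 3 (0.0915) the call of Cdkn1a was also lost. RA alone moved the other way over these days, with all 3 genes falling.

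The effect of the combined treatment against RA alone thus changed between day 5 and day 9, and this change was tested as a difference of differences in the same fit, a test chosen after the values had been seen. The effect moved up by 1.63 (SE 0.17, adjusted p = 1.56e-08) for Cdkn1a, by 0.94 (SE 0.13, adjusted p = 1.30e-06) for Zmat3 and by 1.54 (SE 0.14, adjusted p = 2.37e-09) for Ccng1. It was called for 38.9% of the listed genes. From day 5 to day 9 the mean of Cdkn1a went from 1381 to 3736 in M and from 3673 to 3210 in R, that of Zmat3 from 3325 to 5061 and from 5826 to 4605, and that of Ccng1 from 9655 to 18776 and from 17574 to 11677. For Cdkn1a the R5 and R9 libraries overlapped, and R9 over R5 was not tested.

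**Figure D2:**
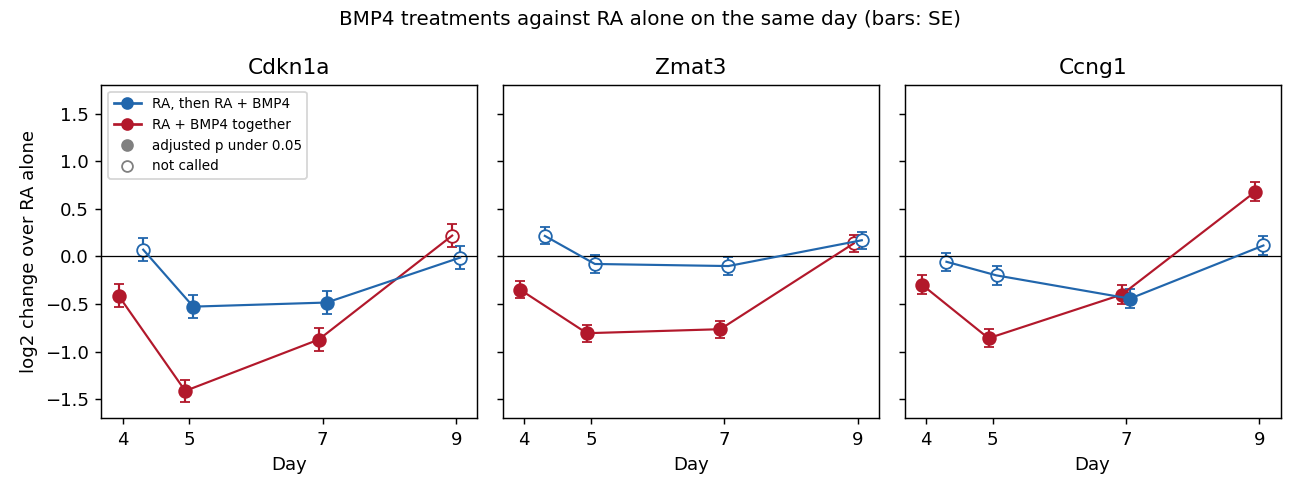
Log2 change of each gene against RA alone on the same day (vertical axis) by day of sampling (horizontal axis), for the sequential (blue) and combined (red) BMP4 treatments. Bars are SE and filled points passed an adjusted p under 0.05. The combined treatment is lowest on day 5 (-1.41, -0.81 and -0.86) and above 0 on day 9 (0.22, 0.14 and 0.68), whereas the sequential treatment stays between -0.53 and 0.215.

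Other p53 target genes were taken from 3 lists by role, 45 genes in all with the members, of which 39 were in the table, leaving 36 others. A target here is a gene known to respond to p53 in some cell type. In D3 over D0, 14 of the 36 rose and 7 fell, with a median log2 change of 0.03 against 0.071 for all listed genes. That is 58.3% called, near the 54.9% of all listed genes, of which 30.93% rose and 23.98% fell. Among the genes of cell death 7 of 12 rose and 2 fell. Pmaip1, which encodes the pro-apoptotic BH3 protein Noxa, rose (1.86), as did the death receptor Fas (1.26), whereas Bbc3, which encodes the BH3 protein Puma, and Bax fell (-0.57 and -0.47). Among the 10 others of cell cycle arrest only Phlda3, an inhibitor of Akt, rose (0.62), and Gadd45a, a stress sensor, fell by 2.58. Of 14 genes of repair and metabolism 6 rose and 2 fell, with the excision repair nuclease Ercc5 (0.85) and the lipid enzyme Lpin1 (0.96) among the risen. The direction of this list depends on the scaling: 11 rose and 10 fell with quantile normalization, and 6 rose and 14 fell with median centring. In R4 over D3, 3 rose and 7 fell (8.3% and 19.4%), and 24.3% of all listed genes were called in either direction. There 4 rose and 14 fell without D3 replicate 1, 3 and 4 without D3 replicate 2, and 4 and 3 without D3 replicate 3. Pmaip1 fell with Cdkn1a (-0.89), and Bbc3 (0.77) and Gadd45a (1.19) rose.

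Under the combined treatment more of these genes fell than rose on days 5 and 7. In M5 over R5, 15 of the 36 fell and 7 rose (41.7% and 19.4%), where 23.3% of all listed genes fell and 21.04% rose, and the median log2 change was -0.30 against -0.02 for all listed genes. Among the arrest genes the antiproliferative factor Btg2 (-1.21), the stress kinase Plk3 (-2.32), the mTORC1 inhibitor Sesn2 (-0.83) and Gadd45a (-0.85) fell. Among the death genes Bbc3 (-1.10), Pmaip1 (-1.06), the nuclease Aen (-0.89), the receptor Eda2r (-0.34) and Ei24 (-0.42) were among 7 of 12 that fell. Ercc5 (-0.76) and the ribonucleotide reductase subunit Rrm2b (-0.54), which supplies nucleotides for repair, fell as well. Others went the opposite way: the phosphatase gene Ptprv (3.03), Fas (1.83), the desmosomal gene Perp (0.78) and the antioxidant regulator Sesn1 (0.56) rose. With median centring 7 rose and 11 fell, and with each library left out 12 to 16 fell. In M5 over B5, 3 rose and 10 fell (8.3% and 27.8%), and 17.8% of all listed genes were called in either direction. The median was -0.24 against -0.014 for all listed genes.

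In M7 over R7, 17 fell and 5 rose (47.2% and 13.9%, against 20.6% and 22.91% of all listed genes), with a median of -0.19 against 0.01. Called among them were Plk3 (-2.73), Btg2 (-1.43), Gadd45a (-1.32), Pmaip1 (-0.94) and Bbc3 (-0.63) on the lower side and Ptprv (3.15) on the higher. Fitted to the 6 libraries alone the counts were 9 and 1, and with median centring 11 fell and 6 rose. Without M7 replicate 3, 11 fell and 7 rose. In M9 over R9 the counts were 11 risen and 7 fallen (30.6% and 19.4%, against 27.49% and 23.55% of all listed genes), with a median of 0.04, equal to that of all listed genes to 2 decimals. Against B9 the balance was the other way, with 8 risen and 11 fallen in M9 over B9 (22.2% and 30.6%, against 27.75% and 23.73% of all listed genes). Fas (0.42) was no longer called. The receptor Tnfrsf10b (0.88), Pidd1 (0.89), a death-domain protein, Eda2r (0.41) and Ei24 (0.28) were higher, like Ccng1. Plk3 (-2.58), Gadd45a (-1.24) and Btg2 (-0.95) were still lower. Genes that were low with the members on day 5 thus differed on day 9: some were above RA alone, some below, and others, such as Aen (0.04), Ercc5 (0.00) and Sesn2 (-0.13), were not called.

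**Figure D3:**
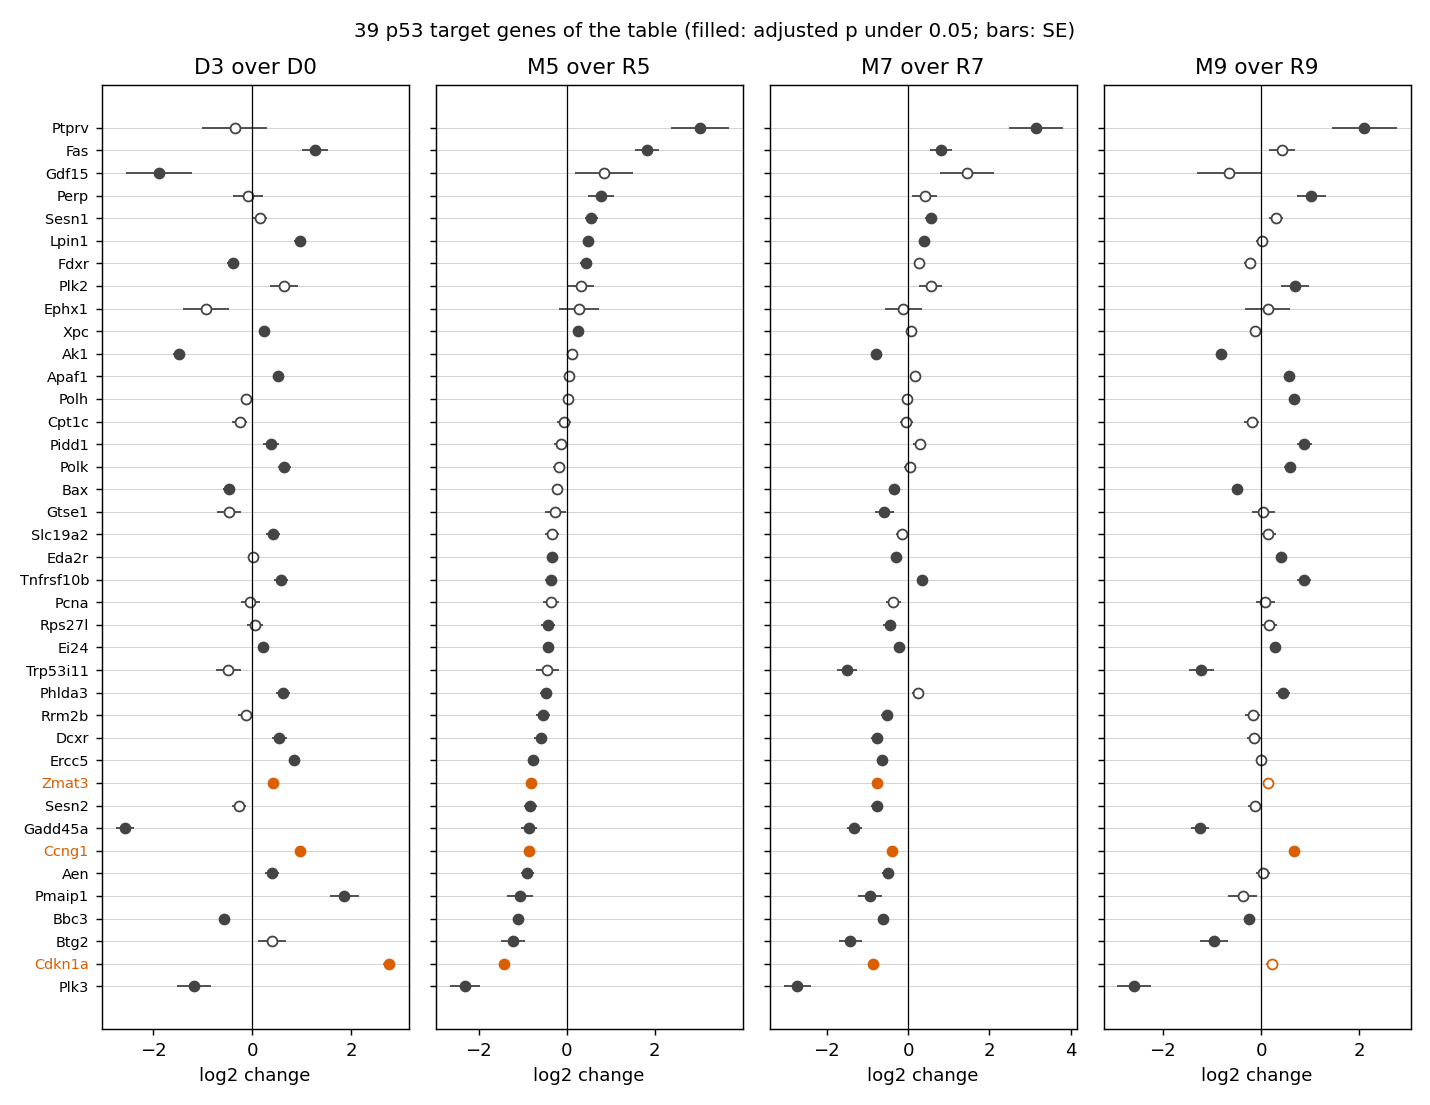
Log2 change (horizontal axis) of the 39 p53 target genes of the table in 4 comparisons, ordered by their change in M5 over R5, with SE bars. Filled points passed an adjusted p under 0.05 and the 3 members are orange. In M5 over R5 the members lie toward the low end with Bbc3, Pmaip1 and Aen, and Ptprv (3.03) and Fas (1.83) lie at the high end.

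Against the sequential treatment on day 7, 7 of the 36 rose and 11 fell in M7 over B7 (19.4% and 30.6%, against 21.72% and 19.93% of all listed genes). On day 4 in M4 over R4, 2 rose and 5 fell (5.6% and 13.9%), and 14.1% of all listed genes were called in either direction. Between 2 and 5 fell with each library left out. In B7 over R7, 3 rose and 6 fell (8.3% and 16.7%), and 23.7% of all listed genes were called in either direction. Bbc3 (-0.34), Eda2r (-0.25), Ei24 (-0.34) and Ercc5 (-0.41) were among those that fell. Without R7 replicate 3 none rose and 5 fell, and without B7 replicate 1 none rose and 6 fell. In B5 over R5 none rose and 2 fell, Bbc3 (-0.61) and Ercc5 (-0.33). That is 5.6% called, against 5.99% of all listed genes. At an unadjusted p under 0.05 there 5 rose and 5 fell, and the authors' deposited test called 1. In B6hr over R6hr limma called none (6 risen and 0 fallen at an unadjusted p under 0.05, 0 in the authors' deposited test), and 10 rose in a fit of those 6 libraries with the replicate block, which called 25.9% of all listed genes. In R9 over R7, 1 rose and 7 fell (2.8% and 19.4%), and 20.3% of all listed genes were called in either direction. With the replicate block in a fit of the 6 libraries, which called 35.5% of all listed genes, 4 rose and 17 fell. Without the block that fit called 8.23% of all listed genes, and 0 of the 36 rose and 1 fell. In the fit over all libraries the counts were 3 and 3 with quantile normalization and 1 and 3 without R7 replicate 1. In B9 over R9 11.8% of all listed genes were called. There 4 of the 36 rose (11.1%) and 0 fell by limma (9 and 2 at an unadjusted p under 0.05). Only 1 rose without R9 replicate 3, and 2 rose without R9 replicate 2, B9 replicate 1 or B9 replicate 2. In M9 over M7 4.00% of all listed genes were called. There 2 of the 36 rose (5.6%), the carbonyl reductase gene Dcxr (0.57) and Ercc5 (0.38), and 0 fell (7 and 3 at an unadjusted p under 0.05). Only 1 of them was called with the replicate block in a fit of those 6 libraries.

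**Figure D4:**
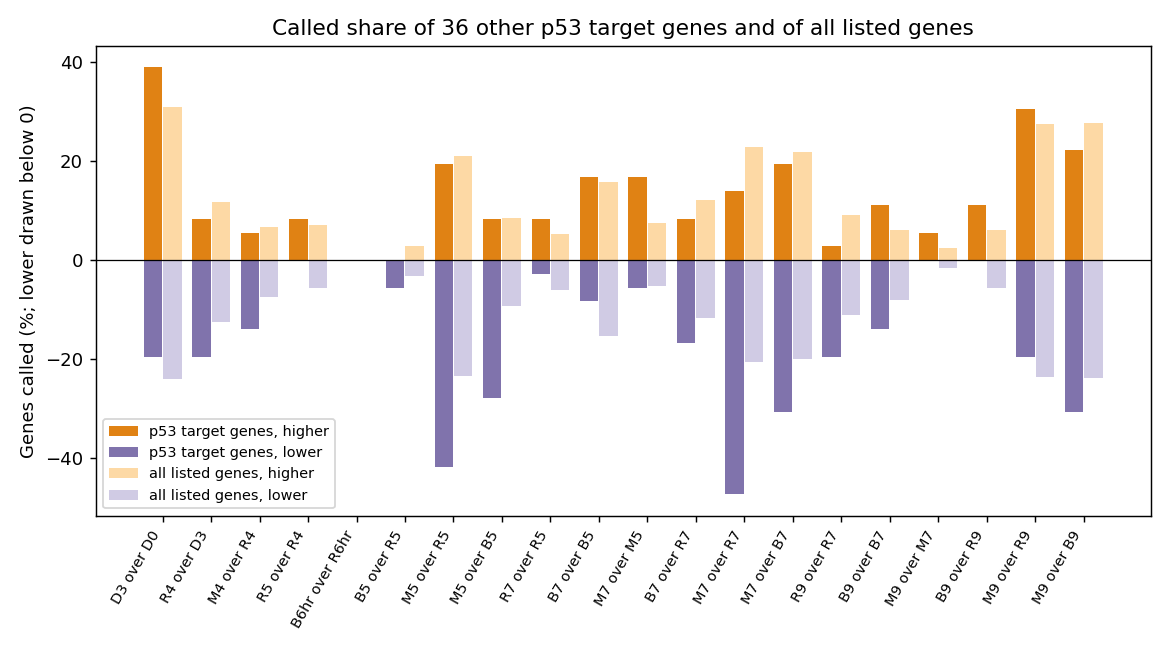
Share of the 36 other p53 target genes (darker bars) and of all 11220 listed genes (paler bars) that were called in each comparison, as a percentage, with genes that were higher above 0 and genes that were lower below 0. In M5 over R5 41.7% of the target genes were lower against 23.3% of all listed genes.

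Among the regulators of p53, Mdm2 was called in 1 comparison only. Trp53, the gene of p53, is not among the listed genes, so its level could not be followed here. Mdm2, itself a p53 target and the main brake on p53, had group means between 2541 in M5 and 4059 in D0 and was called only in D3 over D0, where it fell (-0.46). In M5 over R5 it stood at 2913, 2557 and 2152 against 2866, 2731 and 2446 and was not called (-0.09). Mdm4, the partner of Mdm2, fell in D3 over D0 (-0.67) and was higher in M5 than in R5 (0.39). Cdkn2a, whose Arf product inhibits Mdm2, was lower in M5 than in R5 (-0.98) and higher in M9 than in R9 (1.01). Trp63, a p53 relative and surface epithelial factor, was higher in M4 (4.85), M5 (2.23), M7 (3.13) and M9 (3.17) than in RA alone of the same day. Its level reached 242 to 590 in the M4 libraries, against 7.29 to 19.6 in R4. Of the 13 regulators and partners that are among the listed genes, 4 rose and 1 fell in M5 over R5, and 1 rose and 4 fell in D3 over D0. That is 38.5% called in each, below the 44.3% and 54.9% of all listed genes.

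The relatives of the members were read beside them. Of 6 other CDK inhibitor genes none rose in D3 over D0, where Cdkn1a rose most, and 3 fell: Cdkn1b (-0.52), Cdkn2d (-0.75) and Cdkn3 (-0.93). In that comparison 54.9% of all listed genes were called in either direction. Cdkn1c, the nearest relative beside Cdkn1b, was not called (0.19), with libraries between 4285 and 9083 in D0 and between 4558 and 10216 in D3. In M5 over R5 none rose, and Cdkn2a (-0.98) and the INK4 inhibitor gene Cdkn2c (-1.20) fell, where 44.3% of all listed genes were called. At an unadjusted p under 0.05 the counts of risen CDK inhibitor genes were also 0 in both comparisons. Ccng2, the other cyclin G gene, was not called in D3 over D0 (0.77) or M5 over R5 (0.03), and Ccni, a cyclin of the same branch, rose in the former (0.60). Zmat1 rose (1.53) and Zmat4 fell (-1.10) in D3 over D0, at low levels of 17.4 to 190 and 17.9 to 135 in those libraries. Zmat5 was lower in M5 (-0.28), M7 (-0.42) and M9 (-0.58) than in RA alone. Of 17 proliferation genes 7 fell and 1 rose in D3 over D0, 47.1% called against 54.9% of all listed genes, and 7 rose and 0 fell in R4 over D3, 41.2% called against 24.3%. In fits of the 6 libraries alone 4 fell and 1 rose at D3, and 1 rose in R4 (0 with the replicate block). Without D3 replicate 1 the counts were 10 fallen and 1 risen at D3 and 14 risen at R4, and without D3 replicate 3 they were 4 fallen and 1 risen at D3 and 2 risen at R4. In R4, 3 rose without D3 replicate 2 and 2 without R4 replicate 2. In M5 over R5, where Cdkn1a was lower and 44.3% of all listed genes were called, none of the 17 rose and 3 fell. Under quantile normalization 2 of them rose and 3 fell.

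Across the 15 group means of log2 level the 3 genes were alike to a middling degree. Pearson's r was 0.653 between Cdkn1a and Zmat3, 0.655 between Cdkn1a and Ccng1, and 0.675 between Zmat3 and Ccng1, and Spearman's rho was 0.650, 0.450 and 0.514. Over the 13 groups treated with RA, r was 0.750, 0.553 and 0.689. Within groups, over the deviations of the 45 libraries from their group means, Zmat3 and Ccng1 went together (r = 0.646), unlike Cdkn1a with Zmat3 (-0.239) or with Ccng1 (0.134). These are descriptions: the points share libraries and their normalization. The genes most like Cdkn1a over the 15 means were Pex5l (r = 0.920), the lipid transporter Mfsd2a (0.914), the potassium channel Kcnc1 (0.913), the RNA-binding protein Celf2 (0.908) and the sphingomyelinase Smpd3 (0.905). For Zmat3 they were the myosin motor Myo5a (0.933), Lmln (0.921), Ptar1 (0.911), the thioesterase Acot7 (0.899) and Ptchd4 (0.899). For Ccng1 they were the kinase Zak (0.965), the fatty acid ligase Acsl4 (0.947), Gmfb (0.936), the zinc finger factor Ikzf1 (0.932) and the metabolic enzyme subunit Dlst (0.929). Zmat3 and Ccng1 held places 627 and 619 among the genes most like Cdkn1a.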

How the data were processed

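Bulk RNA sequencing libraries of 45 mESC cultures were made with a NuGEN Universal Plus mRNA kit, per the labels' protocols. The submitters' processing notes name edgeR, Picard and mm10, with no role or version, and for the aligner, the read counter and the annotation the sources used here give nothing. The main values are a normalized signal (level) per gene and library, as deposited by the authors, with no unit stated and no value at 0. The authors' log2 fold changes, p-values and FDR for 12 comparisons are in the same deposited table. Its columns headed FPKM and rank were deposited by the authors and treated as a score here, since the former do not behave as FPKM, and neither was used. Of 22 symbols turned into dates, 19 were restored.

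From the levels, log2(level + 1) was fitted with limma 3.58.1 (R 4.3.3; trend and robust settings), 1 coefficient per group over all 45 libraries, for genes at a level of 1 or more in 3 libraries. Adjusted p-values are Benjamini-Hochberg over all genes tested. Tests in the alternatives are in the closing section. The members and the gene lists were chosen with earlier results of these data known. The text names the 3 members, genes of the p53 target, CDK inhibitor and relatives lists, Trp53, Mdm2 and Mdm4, and the 5 genes most like each member. Trp63 and the day 3 markers Nkx1-2, Cdx2 and Sox2 were named after their values were seen. Replicate numbers of the labels were checked for pairing by the correlation of same-numbered libraries' deviations from their group means. All 3 correlations were over 0.1 in B6hr over R6hr (0.586, 0.189 and 0.465), R9 over R7 (0.506, 0.323 and 0.736) and M9 over M7 (0.254, 0.279 and 0.269). The fit was tested on simulated data. Figures were drawn with matplotlib 3.10.9.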

Additional observations from a re-analysis of the deposited data

Results flagged for a closer look

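The effect of the combined treatment against RA alone differed between day 9 and day 5 for each of the 3 genes, by a test of the difference itself that was chosen after the values had been seen. The difference on the log2 scale was 1.631 for Cdkn1a (-1.41 on day 5 and 0.22 on day 9), 0.944 for Zmat3 (-0.81 and 0.14) and 1.540 for Ccng1 (-0.86 and 0.68). Of the listed genes, 38.9% were called in the same test.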

How the results depend on the processing

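The changes of the 3 genes were recomputed in each of 20 comparisons. None changed sign past the threshold. No call changed with a pseudocount of 0.1, with no filter or with a filter at level 10. The changes in D3 over D0 of Cdkn1a and Ccng1, of Cdkn1a in R4 over D3, of all 3 genes in M5 over R5, M5 over B5 and R9 over R7, and of Cdkn1a and Zmat3 in M7 over R7 stayed called under every alternative run. Values below are adjusted p, limma, and the cause of each change was not tested.

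With each library left out in turn, 321 of the results kept their side of the threshold, 34 lost their call and 5 gained it. The ranges of those affected were 0.0163 to 0.133 for Cdkn1a in M4 over R4, 0.003045 to 0.0863 for Zmat3 in M4 over R4, 0.04265 to 0.154 for Ccng1 in M4 over R4, 0.0271 to 0.138 for Cdkn1a in R5 over R4, 0.009165 to 0.0701 for Cdkn1a in B5 over R5, 0.0112 to 0.0717 for Cdkn1a in R7 over R5, 0.0389 to 0.258 for Zmat3 in R7 over R5, 0.0345 to 0.158 for Zmat3 in B7 over B5, 0.0294 to 0.153 for Ccng1 in B7 over B5, 0.0253 to 0.127 for Zmat3 in M7 over M5, 0.008535 to 0.0637 for Cdkn1a in M7 over B7, 0.0218 to 0.0674 for Zmat3 in B9 over B7, 0.0231 to 0.16 for Cdkn1a in M9 over M7, 0.0448 to 0.192 for Zmat3 in M9 over M7, 0.0432 to 0.476 for Cdkn1a in M9 over R9, 0.0359 to 0.389 for Cdkn1a in M9 over B9.

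With the replicate block over all libraries calls were gained by Zmat3 0.0473 in R7 over R5, Zmat3 0.0439 in M9 over M7. A fit of the compared libraries alone, which estimates the spread from 6 libraries, lost Cdkn1a 0.125, Zmat3 0.199, Ccng1 0.175 in M4 over R4, Cdkn1a 0.0892 in R5 over R4, Cdkn1a 0.0981 in B5 over R5, Cdkn1a 0.0751 in R7 over R5, Zmat3 0.0935 and Ccng1 0.09205 in B7 over B5, Zmat3 0.0746 and Ccng1 0.0522 in M7 over M5, Ccng1 0.0517 in M7 over R7, Cdkn1a 0.137 and Ccng1 0.109 in M9 over M7. With the replicate block in that fit the lost calls were Zmat3 0.0571 in D3 over D0, Cdkn1a 0.159, Zmat3 0.272, Ccng1 0.338 in M4 over R4, Cdkn1a 0.196 in R5 over R4, Cdkn1a 0.299 in B5 over R5, Cdkn1a 0.236 in R7 over R5, Zmat3 0.181 and Ccng1 0.181 in B7 over B5, Cdkn1a 0.14 and Ccng1 0.17 in B7 over R7, Ccng1 0.162 in M7 over R7, Zmat3 0.098 in B9 over B7, Cdkn1a 0.0761 in M9 over M7, and Zmat3 0.0183 in B6hr over R6hr was gained. By the correlation check the numbers were taken as pairs only in B6hr over R6hr, R9 over R7 and M9 over M7. The labels do not say whether equal numbers mark a shared differentiation. In R9 over R7 libraries of different numbers correlated by up to 0.497, above the 0.323 of replicate 2.

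Quantile normalization lost Cdkn1a 0.164 in R5 over R4, Ccng1 0.0916 in B7 over B5, Zmat3 0.108 in B9 over B7 and gained Zmat3 0.00743 in R7 over R5, Zmat3 0.00327 in M9 over M7, Zmat3 0.00626 in M9 over B9. Median centring lost Zmat3 0.228 in D3 over D0, Zmat3 0.19 and Ccng1 0.3155 in M4 over R4, Cdkn1a 0.0503 in R5 over R4, Zmat3 0.4165 and Ccng1 0.0548 in B7 over B5, Zmat3 0.3495 and Ccng1 0.0879 in M7 over M5, Zmat3 0.176 in B9 over B7 and gained Cdkn1a 0.0367 in M9 over R9, Cdkn1a 0.0186 in M9 over B9. A pseudocount of 5 gained Zmat3 0.049 in M9 over M7. At a threshold of 0.01 these were no longer called: Cdkn1a 0.0164 and Ccng1 0.0357 in M4 over R4, Cdkn1a 0.0348 in R5 over R4, Cdkn1a 0.0115 in R7 over R5, Zmat3 0.0424 and Ccng1 0.0404 in B7 over B5, Zmat3 0.0227 in M7 over M5, Zmat3 0.0122 in B9 over B7, Cdkn1a 0.0283 in M9 over M7. Adjustment over the 16014 genes inferred as tested by the authors lost Ccng1 0.05095 in M4 over R4, Zmat3 0.0605 and Ccng1 0.0577 in B7 over B5, and the authors' deposited test lost Ccng1 0.119 in M4 over R4.

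The number of listed genes called moved by over 1.5 times in the fit of the compared libraries alone (6161 to 4001 in D3 over D0, 2722 to 1046 in R4 over D3, 1586 to 364 in M4 over R4, 1430 to 477 in R5 over R4, 2 to 847 in B6hr over R6hr, 672 to 97 in B5 over R5, 1997 to 1020 in M5 over B5, 1260 to 236 in R7 over R5, 2661 to 1475 in B7 over R7, 4882 to 3238 in M7 over R7, 2274 to 923 in R9 over R7, 449 to 168 in M9 over M7) and with the replicate block in that fit (6161 to 3081 in D3 over D0, 2722 to 161 in R4 over D3, 1586 to 340 in M4 over R4, 1430 to 2 in R5 over R4, 2 to 2902 in B6hr over R6hr, 672 to 2 in B5 over R5, 1260 to 0 in R7 over R5, 3501 to 2119 in B7 over B5, 1406 to 2937 in M7 over M5, 2661 to 0 in B7 over R7, 4882 to 1274 in M7 over R7, 2274 to 3983 in R9 over R7, 1596 to 146 in B9 over B7, 1328 to 2214 in B9 over R9). Scaling moved the share of called genes that rose from 56.3% to 41.7% in D3 over D0 and from 47.5% to 60.1% in M5 over R5 (median centring), and from 59.1% to 44.7% in M7 over M5 (quantile normalization). With 3 libraries a group and unknown depth, simulated 2-fold changes in M5 over R5 were recovered for 56% of genes and 4-fold changes for 88%. At a threshold of 0.01, 15 of the 20 comparisons had their count of called genes cut by over 1.5 times, for example from 2722 to 1694 in R4 over D3 and from 449 to 161 in M9 over M7. In B6hr over R6hr the 2 calls became 0 to 12 under the other settings over all libraries. Leaving out 1 library moved the count by over 1.5 times in 13 comparisons. In B6hr over R6hr it was then 0 to 10, and elsewhere the lowest counts were 1430 to 517 in R5 over R4 (without R5 replicate 3), 1586 to 876 in M4 over R4 (without M4 replicate 2), 672 to 196 in B5 over R5 (without B5 replicate 2), 1260 to 629 in R7 over R5 (without R5 replicate 3), 1997 to 1026 in M5 over B5 (without B5 replicate 3), 3501 to 2104 in B7 over B5 (without B5 replicate 3), 1406 to 882 in M7 over M5 (without M5 replicate 2), 2274 to 1353 in R9 over R7 (without R9 replicate 3), 2661 to 1441 in B7 over R7 (without B7 replicate 1), 1596 to 915 in B9 over B7 (without B9 replicate 3), 449 to 193 in M9 over M7 (without M9 replicate 1), 1328 to 556 in B9 over R9 (without R9 replicate 2).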
